A study of Mus musculus with 6 samples.

Results

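The 10 genes described here encode the core of ER-associated degradation (ERAD) in mouse liver, and they were taken by gene symbol from the deposited expression table. They are Syvn1, Sel1l, Derl1, Derl2, Derl3, Edem1, Edem2, Edem3, Herpud1 and Os9, and they make up 10 of the 20673 genes in the table. All 10 were expressed highly enough to be tested. Liver RNA was sequenced from 6 C57BL/6J mice, with 1 library per mouse. Mice received either a regular diet (RD, 3 mice) or a high-cholesterol diet (HCD, 3 mice) for 3 days. The HCD held cocoa butter, added cholesterol and sodium cholate, whereas the RD was a standard chow, so that cholesterol, bile acid and fat differed together between the groups and cannot be told apart. The comparison of HCD with RD addressed how liver gene expression responds to the cholesterol-rich diet.

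ERAD removes misfolded proteins from the endoplasmic reticulum (ER). Lectins and mannosidases mark a faulty glycoprotein, a membrane complex built around a ubiquitin ligase moves it out of the ER and tags it, and the ATPase p97 pulls it into the cytosol for the proteasome. In hepatocytes, which secrete most plasma proteins, the same machinery also sets the amount of several ER enzymes, including enzymes of sterol synthesis, and many of its genes are targets of the unfolded protein response (UPR).

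The UPR factors ATF6 and XBP1 are known to act through short promoter elements, so the promoters of 5 members are shown for comparison with their RNA. These are the 3 members whose window holds a complete element (Syvn1, Derl3 and Herpud1), followed by Sel1l, which fell, and Os9, the member with the log2 fold change nearest to 0. Each line gives 250 bases before and 50 bases after the transcript start from RefSeq on GRCm38.p6, written 5′ to 3′ in the direction of the gene, and capitals mark CCAAT and CCACG on either strand. The windows are chr19:6046326-6046625 on the plus strand for Syvn1, chr10:75893148-75893447 on the plus strand for Derl3, chr8:94386179-94386478 on the plus strand for Herpud1, chr12:91849108-91849407 on the minus strand for Sel1l and chr10:127121111-127121410 on the minus strand for Os9.
Syvn1: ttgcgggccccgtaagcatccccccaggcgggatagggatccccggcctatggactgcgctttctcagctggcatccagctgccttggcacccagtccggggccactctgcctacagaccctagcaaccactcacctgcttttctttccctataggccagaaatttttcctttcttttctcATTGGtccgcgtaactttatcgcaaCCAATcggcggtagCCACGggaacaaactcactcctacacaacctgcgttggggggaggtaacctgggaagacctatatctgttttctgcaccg
Derl3: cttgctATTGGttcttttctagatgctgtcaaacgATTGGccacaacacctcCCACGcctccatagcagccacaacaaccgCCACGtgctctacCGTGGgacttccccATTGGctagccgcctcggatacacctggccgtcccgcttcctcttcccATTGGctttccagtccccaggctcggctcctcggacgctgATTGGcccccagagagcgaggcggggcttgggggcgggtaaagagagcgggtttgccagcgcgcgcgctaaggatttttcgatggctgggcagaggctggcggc
Herpud1: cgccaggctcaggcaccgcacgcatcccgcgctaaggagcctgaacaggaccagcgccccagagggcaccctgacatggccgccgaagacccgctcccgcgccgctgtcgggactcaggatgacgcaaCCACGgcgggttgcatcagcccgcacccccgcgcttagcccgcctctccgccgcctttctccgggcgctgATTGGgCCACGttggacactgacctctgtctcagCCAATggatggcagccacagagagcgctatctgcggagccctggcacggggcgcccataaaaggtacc
Sel1l: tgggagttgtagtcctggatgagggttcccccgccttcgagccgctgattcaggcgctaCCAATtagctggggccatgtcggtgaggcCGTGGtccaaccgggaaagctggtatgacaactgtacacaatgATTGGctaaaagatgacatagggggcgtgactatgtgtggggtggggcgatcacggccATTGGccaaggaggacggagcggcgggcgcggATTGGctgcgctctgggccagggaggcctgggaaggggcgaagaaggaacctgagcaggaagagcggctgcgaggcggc
Os9: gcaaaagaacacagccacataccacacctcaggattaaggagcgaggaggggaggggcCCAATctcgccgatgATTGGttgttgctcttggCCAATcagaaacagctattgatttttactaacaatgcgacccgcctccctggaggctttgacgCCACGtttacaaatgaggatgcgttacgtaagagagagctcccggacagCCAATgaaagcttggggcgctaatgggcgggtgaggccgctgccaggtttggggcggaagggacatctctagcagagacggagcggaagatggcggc

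The ER stress response element (ERSE) was searched on both strands as CCAAT, any 9 bases and CCACG. It was present in 2 of the 10 windows of the members, compared with 0.119% of all 32851 windows. In Syvn1 it ran from base -44 to -26 relative to the transcript start, and in Derl3 from -156 to -138 on the opposite strand. The second form of the element (ERSE-II), ATTGG, any base and CCACG, was found in Herpud1 from -52 to -42 and in 0.0365% of all windows. These elements contain CCAAT and CCACG, so that the counts overlap. CCACG alone stood in 9 of the 10 windows (32.8% of all windows) and CCAAT in 8 (37.4%). The core of the UPR element, another site of XBP1, was found in 0 of the 10 windows and in 0.676% of all windows. Of the 10 members, 9 have a window in this table, Derl2 has 2, and Derl1 was not matched. The GC content of the 5 windows shown ranged from 55.7% (Os9) to 68.3% (Herpud1), and the median of all windows was 52.7%.

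The libraries held 13771630 to 23129576 counts, and 3 counts corresponded to 0.1303 to 0.2432 CPM (counts brought to a common library total with TMM factors). Albumin RNA (Alb), the defining hepatocyte product, was among the most abundant RNAs in every liver, from 63320 to 105600 CPM. One library stood apart by sex-linked RNA: HCD replicate 1 had 5032 counts of Xist and 0 counts over 4 Y-linked genes, while the other 5 libraries had 0 counts of Xist and 1075 to 2666 Y-linked counts. The study used both sexes and the labels do not give the sex of a liver, so the called members are also given without HCD replicate 1. With 1 such liver, sex and the other properties of that liver cannot be told apart. Across the 13105 genes tested, 428 (3.27%) were called at an adjusted p under 0.05, with 255 higher (1.95%) and 173 lower (1.32%) with HCD. Leaving out HCD replicate 1 or 2 gave 342 and 387 called genes, and the number fell to 39, 57 and 146 without RD replicate 1, 2 or 3 and to 104 without HCD replicate 3.

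Of the 10 members, 2 fell with HCD and none rose, also at an unadjusted p under 0.05 or with DESeq2, which called 4 members lower (3.19% of the genes it tested). The 2 were Syvn1 and Sel1l, which encode the ubiquitin ligase of the complex and its adaptor, and 1.32% of all genes tested were called lower. The other 8 members did not pass the test, and 2 members were also called lower without HCD replicate 1 (1.03% of all genes tested in that fit). No member was called by edgeR without RD replicate 1, RD replicate 2 or HCD replicate 3. At an unadjusted p under 0.05, 4 members were lower (9.81% of all genes tested), and in 4 members every HCD liver lay below every RD liver (13.7% of all genes tested). Log2 fold changes (HCD over RD) were below 0 for all 10 members and for 49.3% of all genes tested, but those of Derl2, Herpud1 and Os9 lay near 0 and each changed sign in some of the alternatives. The median over the members was -0.25, compared with 0.0074 over all genes tested. The RNA came from whole liver, so that fewer cells of a type and less RNA per cell cannot be told apart.

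**Figure D1:**
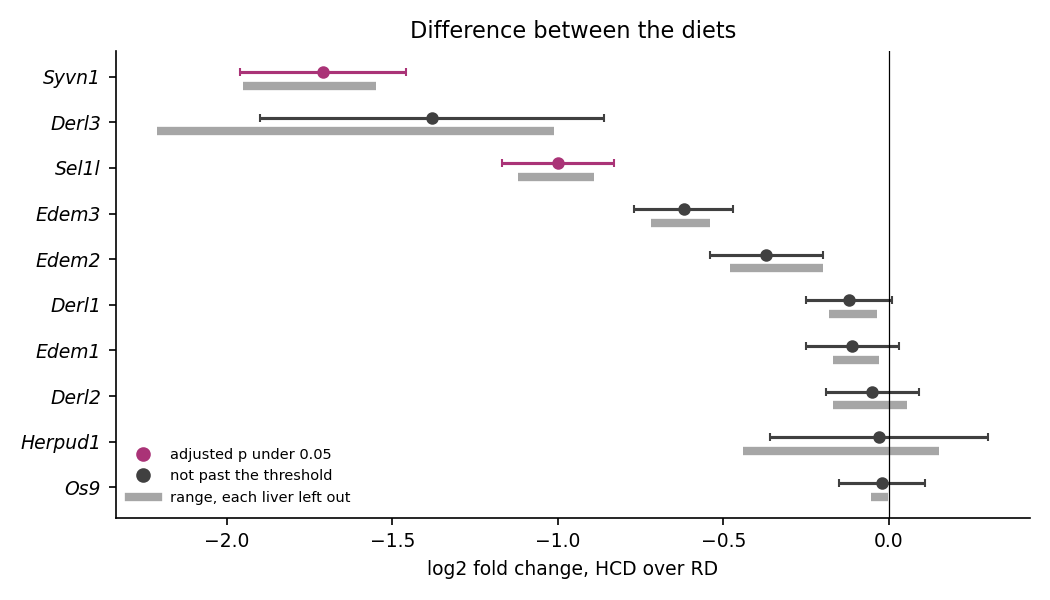
Log2 fold change of HCD over RD for each of the 10 members, with points for edgeR's estimate, bars for its standard error and grey bars for the range when each liver was left out in turn. Syvn1 and Sel1l are coloured because their adjusted p was under 0.05. The grey bars of Herpud1 and Derl2 cross 0.

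SYVN1, also known as HRD1, is the membrane-spanning ubiquitin ligase at the centre of the complex. Syvn1 (ENSMUSG00000024807) was measured at 346.4, 370.4 and 225.8 CPM in the RD livers, in the order of their replicate numbers. With HCD it was measured at 74.4, 126.2 and 87.94 CPM. The lowest RD liver thus lay well above the highest HCD liver, and the mean with HCD was 30.6% of that with RD (314.2 ± 77.53 CPM with RD and 96.16 ± 26.84 with HCD, SD, n = 3 each). The log2 fold change of Syvn1 was -1.71 (standard error 0.25), a 3.27-fold lower level, with a Benjamini-Hochberg adjusted p = 0.0168 (quasi-likelihood test of edgeR). It ranked 88 of the 13105 genes tested by p. Without HCD replicate 1 the log2 fold change of Syvn1 was -1.55 (edgeR adjusted p = 0.0294). Leaving out RD replicate 1, RD replicate 2 or HCD replicate 3 ended the call, with edgeR adjusted p-values of 0.0802, 0.0696 and 0.07, while the log2 fold change stayed between -1.95 and -1.55. Syvn1 shares 91 exon bases with Mrpl49 on the opposite strand, which had 2622 counts over all libraries, and the sources used here do not give the strand setting of the counting.

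SEL1L holds SYVN1 in place and links it to the lectins in the ER lumen. Sel1l (ENSMUSG00000020964) stood at 260.0, 289.3 and 207.9 CPM in the 3 RD livers and at 119.7, 146.1 and 113.8 CPM in the 3 HCD livers. The diets did not overlap, and the mean with HCD was 50.1% of that with RD. Its log2 fold change was -1.0 (standard error 0.17) with an adjusted p = 0.0258 in edgeR, and -0.96 (adjusted p = 0.0478) without HCD replicate 1. The call was lost without RD replicate 1, RD replicate 2 or HCD replicate 3, the same 3 livers as for Syvn1. The edgeR adjusted p-values were then 0.121, 0.116 and 0.0798. Over the 6 fits that left a liver out, the log2 fold change of Sel1l stayed between -1.12 and -0.89.

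HERPUD1 brings the ligase complex together with other ERAD factors and is itself a strongly UPR-responsive gene. Herpud1 (ENSMUSG00000031770) varied the most between livers of a diet in absolute CPM, from 275.7 to 535.3 CPM with RD (535.3, 508.3 and 275.7) and from 314.7 to 639.8 CPM with HCD (314.7, 336.0 and 639.8). RD replicate 3 was the lowest and HCD replicate 3 the highest of the 6 livers, and the diets overlapped. The log2 fold change of Herpud1 was -0.03 (standard error 0.33, edgeR adjusted p = 0.967). It turned positive when any of 4 livers was left out, and ranged from -0.44 to 0.15 over the 6 fits. Its window, printed above, holds the ERSE-II.

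The derlins are membrane proteins that form the exit channel next to SYVN1, and Derl3 is the member of the family best known from secretory tissues. Derl1 (ENSMUSG00000022365) had a log2 fold change of -0.12 (standard error 0.13, edgeR adjusted p = 0.65), with 166.6, 165.4 and 155.6 CPM with RD and 131.0, 160.8 and 156.5 CPM with HCD. HCD replicate 1 was lowest, the other HCD livers lay inside the RD range, and the log2 fold change was -0.035 without HCD replicate 1. Derl2 (ENSMUSG00000018442) was at 117.8, 112.0 and 111.9 CPM with RD and at 94.42, 108.5 and 128.1 CPM with HCD. The log2 fold change of Derl2 was -0.05 (standard error 0.14, edgeR adjusted p = 0.883), and its sign changed to 0.055 without HCD replicate 1 and to 0.079 after removal of a trend with gene length. Derl2 shares 231 exon bases with Mis12, another gene on the opposite strand (1664 counts over all libraries), so reads there could belong to either gene. A processed pseudogene matches 652 bases of Derl1 at 95.4% identity, so reads of Derl1 could be shared with this copy. Derl3 (ENSMUSG00000009092) was the least abundant member, at 14.08, 8.86 and 6.339 CPM with RD and 2.173, 7.1 and 2.026 CPM with HCD. HCD replicate 2 lay inside the RD range, while the other HCD livers were below it. Its log2 fold change was -1.38 (standard error 0.52), but its adjusted p was 0.182 in edgeR. Without HCD replicate 2 the log2 fold change was -2.21 (edgeR adjusted p = 0.0436), and the fits that left out any other liver gave -1.61 to -1.01 (adjusted p 0.185 to 0.466).

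The EDEM proteins trim mannose from misfolded glycoproteins and OS9 recognises the trimmed glycan and delivers the protein to SEL1L. Edem3 (ENSMUSG00000043019) stood at 54.79, 59.44 and 46.15 CPM with RD and at 31.44, 37.78 and 35.18 CPM with HCD. The diets did not overlap, and the mean with HCD was 65.1% of that with RD. Its log2 fold change was -0.62 (standard error 0.15), just outside the threshold (edgeR adjusted p = 0.0595), and -0.55 (adjusted p = 0.112) without HCD replicate 1. In the other edgeR fits of all 6 livers, the adjusted p ran from 0.046 with no filter on low counts to 0.131 after removal of a length trend. Edem2 (ENSMUSG00000038312) was at 82.96, 77.16 and 73.07 CPM with RD and at 45.03, 69.28 and 66.3 CPM with HCD. The diets did not overlap here either, but HCD replicate 1 was far below the other HCD livers, and the log2 fold change of -0.37 (standard error 0.17, edgeR adjusted p = 0.27) moved to -0.2 without it. Edem1 (ENSMUSG00000030104) differed less, with 232.0, 270.3 and 245.0 CPM with RD, 205.2, 250.9 and 236.6 CPM with HCD, and a log2 fold change of -0.11 (standard error 0.14, edgeR adjusted p = 0.705), which moved to -0.031 without HCD replicate 1 and to -0.047 without RD replicate 2. Os9 (ENSMUSG00000040462) deviated least from its mean over the 6 livers, with 287.5, 271.6 and 291.8 CPM with RD and 279.6, 287.0 and 271.0 CPM with HCD, and its log2 fold change was -0.02 (standard error 0.13, edgeR adjusted p = 0.94). The diets overlapped for Edem1 and Os9.

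**Figure D2:**
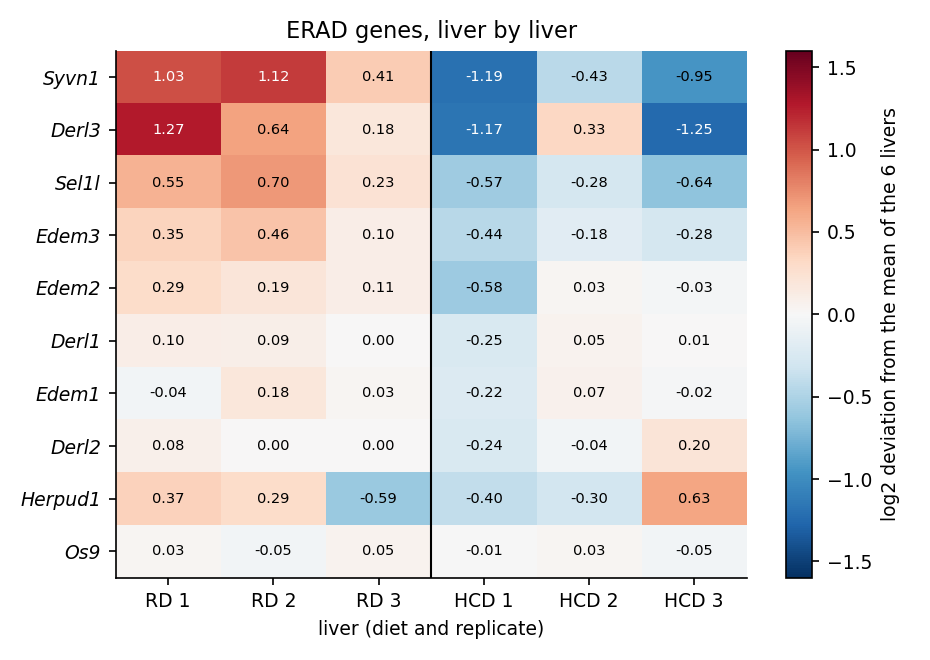
Log2 deviation of each member's CPM from its mean over the 6 livers, with members in rows ordered by log2 fold change and livers in columns, RD left of the line and HCD right. Syvn1 runs from 1.12 in RD replicate 2 to -1.19 in HCD replicate 1, while Os9 stays between -0.05 and 0.05.

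The deviations of the members from their own means over the 6 livers show where the differences sit. Syvn1, Sel1l and Edem3 were positive in all 3 RD livers and negative in all 3 HCD livers. RD replicate 3 was the lowest of the RD livers for these 3 members, and HCD replicate 2 the highest of the HCD livers, so that the 2 diets approached each other there. Averaged over the members, the deviations were 0.4, 0.36 and 0.05 in the RD livers and -0.51, -0.07 and -0.24 in the HCD livers. Among 9107 genes that averaged 5 CPM or more, those nearest to this mean profile were Gemin5, Agpat1, Epb41l4b, Slc17a3 and Atp6v0a2, with root mean square differences of 0.031 to 0.06 on the log2 scale over the 6 livers. None of these 5 passed the test, with log2 fold changes between -0.6 and -0.44 and edgeR adjusted p-values between 0.121 and 0.188.

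Levels can be compared between genes only per length, for which the deposited FPKM (fragments per kilobase, scaled per library to a total that is not stated) was used. With RD, Herpud1 had the highest level (274.3 ± 85.22 FPKM, SD, n = 3), followed by Os9 (157.7 ± 8.943), Syvn1 (95.88 ± 21.98), Derl1 (71.32 ± 1.471), Edem1 (56.37 ± 3.915), Sel1l (43.01 ± 6.18), Edem2 (32.78 ± 1.8), Derl2 (20.68 ± 0.6641), Edem3 (12.22 ± 1.296) and Derl3 (7.136 ± 2.839). Of neighbours in this order, only Syvn1 and Derl1 overlapped between livers. With HCD, Syvn1 stood at 29.79 ± 7.596 FPKM, below Derl1 (66.59 ± 6.281) and Edem1 (53.06 ± 4.47). Syvn1, Edem2 (25.75 ± 5.319), Sel1l (21.92 ± 2.483) and Derl2 (20.35 ± 3.179) followed each other with overlapping ranges, so that their order with HCD is not resolved by 3 livers.

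**Figure D3:**
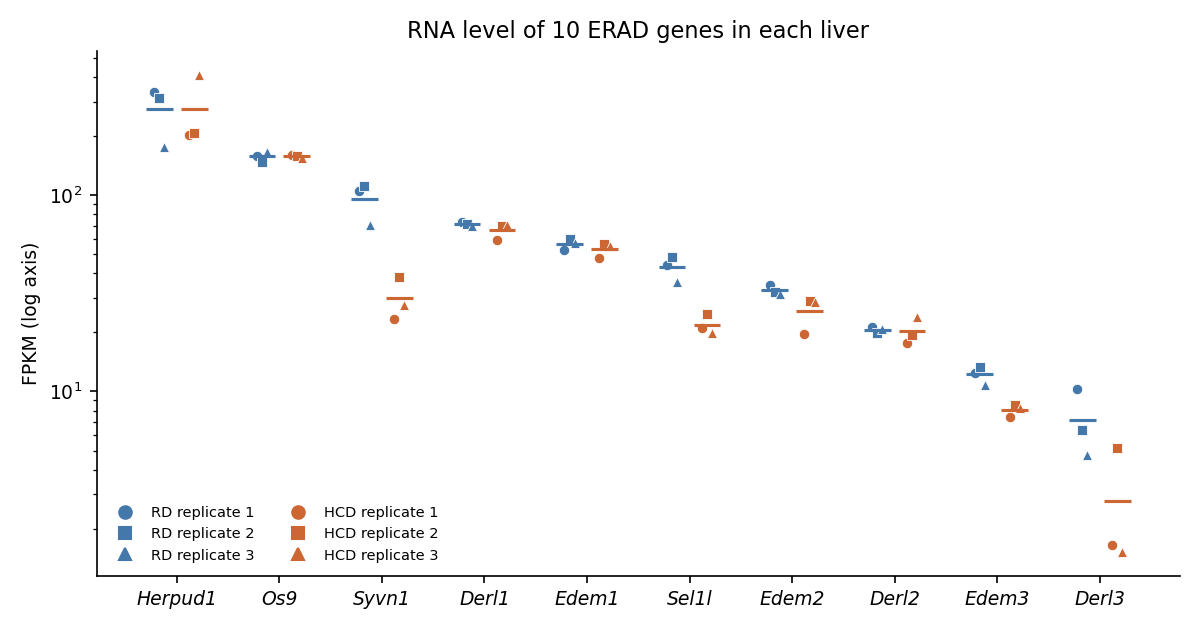
FPKM of the 10 members in each of the 6 livers on a log axis, in the order of their RD means, with points for livers (3 per diet) and short lines for the diet means. The HCD points of Syvn1 and Sel1l all lie below their RD points, and those of Os9 coincide with RD.

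Ratios between 2 members within the same liver do not depend on the scaling of that library. The Syvn1 to Sel1l ratio on the log2 FPKM scale was 1.26, 1.2 and 0.96 in the RD livers and 0.16, 0.63 and 0.47 in the HCD livers. The difference of HCD minus RD was -0.72, with no overlap between diets, and its exact two-sided permutation p was 0.1, the smallest that 3 livers against 3 allow (0.25 after Benjamini-Hochberg adjustment over 5 pairs). The ratio of Syvn1 to its adaptor was thus lower in each HCD liver than in any RD liver, and the difference was -0.59 without HCD replicate 1. No p under 0.05 can be reached with these numbers of livers. The log2 ratio of Edem1 over Edem2 was higher with HCD by 0.28 (exact permutation p = 0.1, adjusted 0.25), also with no overlap, and the difference shrank to 0.17 without HCD replicate 1 and to 0.18 without RD replicate 1. Derl3 over Derl2 differed by -1.5 (exact permutation p = 0.2, adjusted 0.3333), Edem3 over Edem2 by -0.22 (exact permutation p = 0.3, adjusted 0.375) and Derl1 over Derl2 by -0.07 (exact permutation p = 0.6, adjusted 0.6), and the diets overlapped in these 3. For Edem3 over Edem2, HCD replicate 1 (-1.4) lay inside the RD range (-1.54 to -1.26), and the other HCD livers (-1.76 and -1.8) lay below it.

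**Figure D4:**
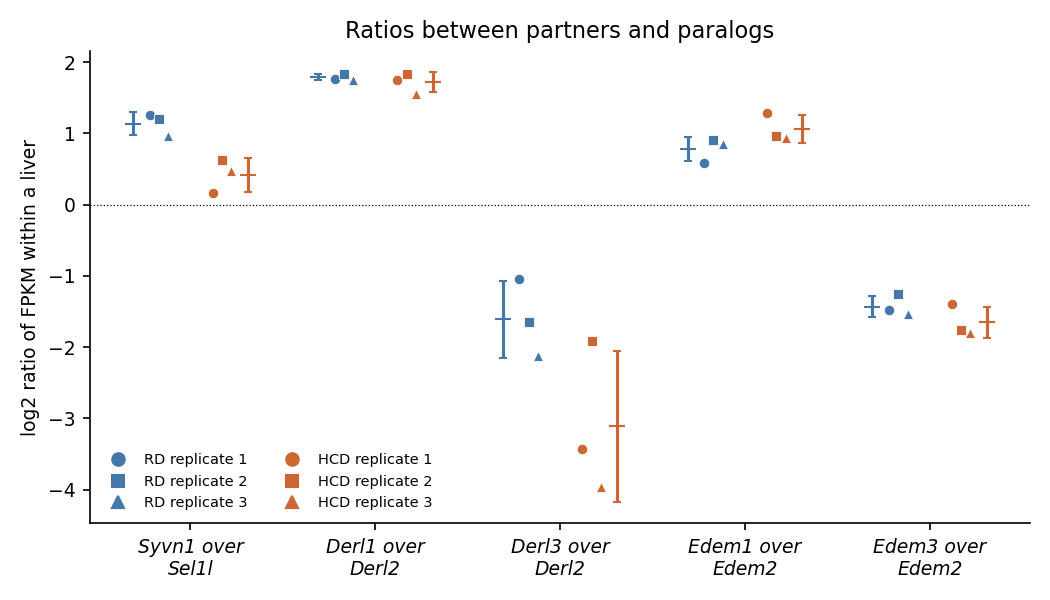
Log2 ratio of FPKM between 2 members within each liver for the 5 pairs compared, with a point per liver and a bar for the mean and SD of each diet (n = 3). The Syvn1 over Sel1l points are from 0.96 to 1.26 with RD and from 0.16 to 0.63 with HCD.

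Other genes of the ERAD pathway were listed by role, and 62 of the 63 listed were tested, Fbxo2 being too low. Of the 62, 1 fell and none rose (1.32% of all genes tested were called lower), and the median log2 fold change was -0.05. The gene that fell was Txndc11, a thioredoxin-like partner of the EDEM proteins, at 50.04, 51.77 and 44.76 CPM with RD and 28.0, 30.81 and 25.13 CPM with HCD. Its log2 fold change was -0.80 (standard error 0.14, edgeR adjusted p = 0.0258). The call was lost without RD replicate 1, 2 or 3 or HCD replicate 3 (edgeR adjusted p 0.0508 to 0.124). It held without HCD replicate 1 (log2 fold change -0.8, edgeR adjusted p 0.0451). With a liver left out, the log2 fold change of Txndc11 stayed between -0.88 and -0.74. Among membrane and luminal partners, 1 of 19 was called lower and the median was -0.09. An unadjusted p under 0.05 was reached by 4 that were lower (9.81% of all genes tested), and DESeq2 called 2 lower (3.19% of the genes it tested). Erlin1, which recruits a ligase to sterol-regulated substrates, had a log2 fold change of -0.79 (edgeR adjusted p = 0.0552, DESeq2 adjusted p = 0.00369). Sdf2l1, an ER chaperone partner, had one of -1.42 (edgeR adjusted p = 0.122), which moved to -1.03 without HCD replicate 1. Of 18 other ligases, conjugating enzymes and adaptors, 0 were called by edgeR or DESeq2, while an unadjusted p under 0.05 was reached by 2 that were higher (11.1% of all genes tested) and by 2 that were lower (9.81%), and the median was 0.02. Of the 25 tested extraction and hand-over genes 0 were called by edgeR or DESeq2, while an unadjusted p under 0.05 was reached by 1 that was higher (11.1% of all genes tested) and by 3 that were lower (9.81%). The median over the 25 was -0.17, with Bag6, which holds extracted proteins in solution, at -0.38 (edgeR adjusted p = 0.125), Ubxn4, a p97 recruiter, at -0.53 (adjusted p = 0.204, and -0.34 without HCD replicate 1) and Fbxo6, a glycan-binding ligase subunit, at 0.45 (adjusted p = 0.131).

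**Figure D5:**
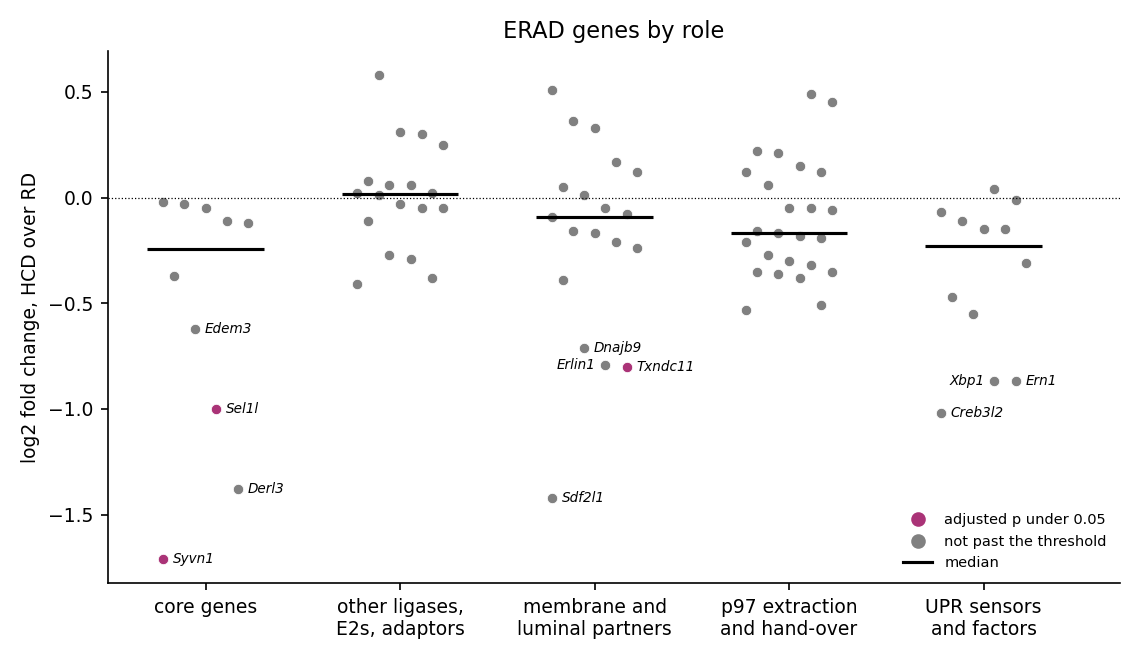
Log2 fold change of HCD over RD for each tested gene of the ERAD pathway by role and of the UPR, with horizontal bars for the median of each list. Coloured points had an adjusted p under 0.05: Syvn1, Sel1l and Txndc11. The 18 other ligases, conjugating enzymes and adaptors centre at 0.02.

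ERAD also degrades enzymes of sterol synthesis, and INSIG proteins take part in this sterol-regulated route. Sqle, which encodes the squalene epoxidase that is degraded by ERAD, stood at 139.8, 107.7 and 88.83 CPM with RD and at 5.408, 7.238 and 4.053 CPM with HCD. It fell, with no overlap between the diets and a log2 fold change of -4.33 (edgeR adjusted p = 0.000736), and one of -4.3 (adjusted p = 0.0029) without HCD replicate 1. Insig1 had a log2 fold change of -1.20 (edgeR adjusted p = 0.0307), which lost the call whichever liver was left out (edgeR adjusted p 0.0508 to 0.116) while staying between -1.32 and -0.97. Insig2, the other INSIG, was at 231.6, 169.2 and 241.8 CPM with RD and 300.9, 407.7 and 460.4 CPM with HCD (log2 fold change 0.86, edgeR adjusted p = 0.0636, and 1.02 with adjusted p = 0.0353 without HCD replicate 1).

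The UPR regulators that act on ERAD genes were listed as well. By edgeR, 0 of the 12 were called, with 4 lower at an unadjusted p under 0.05 (9.81% of all genes tested). DESeq2 called 4 lower (3.19% of the genes it tested), and the median log2 fold change was -0.23. Creb3l2, a membrane-bound factor related to ATF6, had a log2 fold change of -1.02 (edgeR adjusted p = 0.052), and Ern1, which encodes the sensor IRE1, one of -0.87 (adjusted p = 0.0526). Atf6 stood at -0.55 (edgeR adjusted p = 0.09), Xbp1, the factor that IRE1 activates by splicing, at -0.87 (adjusted p = 0.161) and Mbtps2, a protease that releases ATF6, at -0.47 (adjusted p = 0.286, and -0.31 without HCD replicate 1). Gene counts do not separate spliced from unspliced Xbp1.

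Markers of other liver cells were measured beside these results. By edgeR, 0 genes of any marker list were called. At an unadjusted p under 0.05, 3 hepatocyte and 3 Kupffer cell markers were higher, and so were 1 endothelial and 1 stellate cell marker, of 8 on each list (11.1% of all genes tested). DESeq2 called 3 hepatocyte, 2 Kupffer cell and 1 endothelial marker higher (4.01% of the genes it tested). All 8 Kupffer cell markers had log2 fold changes above 0 (median 0.86), as did 6642 of the 13105 genes tested. The diets overlapped for each of the 8. Their summed level was 133.7 to 220.5 CPM with RD and 173.8 to 411.6 CPM with HCD. The medians were 0.5 for 8 stellate cell markers (217.0 to 256.4 CPM with RD, 233.1 to 419.9 with HCD), 0.24 for 8 endothelial markers, 0.6 for 5 cholangiocyte markers and 0.3 for 8 hepatocyte markers. Of the B and plasma cell list 3 genes were tested (median 0.41), and of the exocrine pancreas list, a tissue rich in Derl3, only Cela1 (log2 fold change -0.37). Cela1 was at 7.329 CPM in HCD replicate 1, while the other HCD livers (22.82 and 22.37 CPM) lay inside the RD range of 19.97 to 26.15 CPM. None of the listed markers found in the table was at 0 in every liver. The part of other cells in the values of the members was not tested.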

How the data were processed

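RNA of 6 livers (3 RD, 3 HCD) was sequenced by Novogene. The authors deposited whole-number read counts per gene and FPKM, whose total is not stated; the submitters' processing notes name STAR, HTSeq, DESeq2, edgeR and GRCm39 without versions. Their 3 columns of fold changes and p-values were not used. Counts were tested in R 4.3.3 with edgeR 4.0.16 (filterByExpr, TMM factors 0.8863 to 1.073, quasi-likelihood F test of diet, Benjamini-Hochberg over 13105 genes). The fit was tested on counts simulated with the same spread for every gene, which gives no error rate for these livers. CPM are TMM-scaled; single-liver deviations use log2 of CPM plus 0.5. Ratios used an exact two-sided permutation test over 20 assignments. P-values of edgeR weigh the difference between diets against the variation between 3 livers per diet, estimated with information shared across genes. Alternatives were DESeq2 1.42.0, RLE factors, other count filters, limma-trend 3.58.1 on FPKM plus 1 or 0.1, length and GC trends, a replicate block and each liver left out. The members and lists were chosen with earlier results of these data known. Named genes are the members, called genes of the pathway and UPR lists (or the 5 with the smallest p), genes of sterol-regulated or related degradation, and the 5 nearest profiles; some genes of the rule are not reported here. GENCODE M21 on GRCm38 gave overlaps, and minimap2 2.31 matched copies. Of the symbols, 21 that a spreadsheet had turned into dates were restored by identifier. Figures were drawn with matplotlib 3.10.9 in Python 3.11.15.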

Additional observations from a re-analysis of the deposited data

How the results depend on the processing

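The log2 fold changes of Syvn1 and Sel1l stayed below 0 in every alternative run, and both stayed called in all 9 that kept the 6 livers and lost the call in 3 of 6 that left 1 out. The 428 genes called became 995 with DESeq2, 649 with no filter on low counts and 251 after removing a length trend, while leaving out a liver gave 36 to 387 over both versions of that fit. These 2 versions, which kept the genes of the full fit (39 to 387) or filtered low counts again (36 to 335), had both been seen before the first was chosen. Called members became 4 with DESeq2 (Edem3 and Derl3 added), 3 with no filter (Edem3 added) and 0 to 3 with a liver left out. Called pathway genes became 2 with DESeq2, 3 with no filter and 0 to 2 with a liver left out, and called UPR genes 4, 2 and 0 to 1. Signs turned for Derl2 (0.079 without the length trend, 0.0075 without the GC trend, -0.18 to 0.055 with a liver left out), Herpud1 (-0.44 to 0.15 with a liver left out) and Os9 (0.00048 and 0.00049 with limma on FPKM plus 1 and plus 0.1), and the Derl1 to Derl2 ratio ran from -0.13 to 0.0074 with a liver left out. The cause was not tested.

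Replicate numbers did not pair the livers: same-numbered livers correlated at -0.076, 0.088 and -0.041, and not every liver correlated best with its own number. With the replicate block, 136 genes, 0 pathway genes and 2 UPR genes were called, and Syvn1 had an adjusted p of 0.0349 in edgeR.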

Other observations

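The ERSE found in the Syvn1 and Derl3 windows was counted, after its presence there had been seen, over all genes with a window. Of the 18 tested genes with a complete ERSE, 14 had a log2 fold change below 0 (49.3% of all genes tested), edgeR called 5 lower (1.32% of all genes tested), and the median was -0.59. The 5 were Syvn1, Hspa5 and Hsp90b1, which encode the main ER chaperones of their families, Creld2, an ER protein, and Acacb, an acetyl-CoA carboxylase. Syvn1 lost its call without RD replicate 1, RD replicate 2 or HCD replicate 3, and the other 4 were not followed with a liver left out. Without Syvn1 and Derl3 the median of the other 16 was -0.49, and 4 of them were called lower. Of the 9 tested genes with an ERSE-II, which include Herpud1, 6 were below 0 and the median was -0.21. By edgeR 0 of these 9 were called, with 2 lower (9.81% of all genes tested) and 2 higher (11.1%) at an unadjusted p under 0.05, and DESeq2 called 1 lower (3.19% of the genes it tested). All were measured in the same 6 livers, and the match is of letters only.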
